A study of Homo sapiens with 36 samples.

Results

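Stable knockdown of CHEK2, the gene of the checkpoint kinase CHK2, was read against knockdown of the other kinases of the same pathway in cells labelled MCF-10A, a breast epithelial line of human origin that is not tumorigenic. The line shCHK2-2 was set against shATM-1, shATR-3 and shCHK1-3, and the line shCHK2-1 against shATM-3, shATR-4 and shCHK1-4, with 3 arrays against 9 in each contrast. A gene was taken as a member when both contrasts passed an adjusted p of 0.05 with the same sign, so the members were chosen by their measured values in these very contrasts. Of 11048 genes tested, 113 were members: 19 were higher and 94 were lower in both CHK2 lines. Because the members were selected on these differences, the differences are given as a description, with standard errors and no p-values, except for CHEK2 itself, which the labels name.

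CHK2 is a serine/threonine kinase that ATM activates after DNA double-strand breaks, while ATR activates CHK1 mainly where replication forks stall. Active CHK2 phosphorylates p53, CDC25 phosphatases and BRCA1, and so takes part in cell cycle arrest, apoptosis and repair. ATM, ATR and CHK1 sit upstream of CHK2 or beside it, so the comparison asks which transcripts set the CHK2 lines apart from lines in which another kinase of the network was targeted. The labels list no DNA-damaging treatment.

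The arrays of this comparison are 6 from CHK2 lines and 18 from comparison lines, all Illumina expression BeadChips. Every line carried a lentiviral short hairpin as a stable knockdown and is 1 transduced line. Each target has 2 hairpin lines, each with 3 labelled biological replicates. The other groups of the series were sh53BP1-1, sh53BP1-2, shControl (a scrambled hairpin) and untransduced wild type cells, which entered the same fit and the filter on dim probes, and are set beside the CHK2 lines only where named. Cells were seeded at 200000 per 10 cm plate and harvested after 48 hours. P-values measure the spread between the 3 arrays of a line, and a hairpin's off-target effects cannot be told apart from loss of its target within 1 line.

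Between 33.6% and 36.7% of probes were above background in shCHK2-2 and between 34.6% and 37.9% in its comparison lines. The shares were 34.7% to 36.5% in shCHK2-1 and 33.5% to 38.3% in its comparison lines, so detection overlapped in both contrasts. All 7 basal epithelial markers with a named probe, among them KRT5 and KRT14, were above background on all 24 arrays. Of 6 luminal markers, EPCAM, KRT8, KRT18 and ELF3 were above background on all 24 arrays, MUC1 on 22 and KRT19 on none. None of the 4 endothelial markers was above background on any array. Of 7 fibroblast markers, FAP was above background on all 24 arrays, COL1A2 on 2, COL1A1 on 1 and 4 on none. Of 5 immune markers, CD68 was above background on all 24 arrays, CD79A on 8, LYZ on 6, and PTPRC and CD3E on none. Some libraries go against the cell line name that all of them carry. MTAP and CDKN2A, which lie in a region of chromosome 9 that MCF-10A is known to lack, gave signal above background in 24 of 24 kinase line arrays and in 0 of the 12 arrays of the other groups. The log2 signal of MTAP lay between 9.95 and 10.40 in the CHK2 lines and between 4.50 and 5.02 in the other groups. GSTT1, which lies elsewhere in the genome, showed the same split, on 24 of 24 and 0 of 12 arrays. All 8 lines of the state-matched contrasts lie on one side of this divide, while any comparison of a kinase line with shControl, wild type or the sh53BP1 lines crosses it.

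The 8 kinase lines also fall into a pair of states, with 1 hairpin line of each target in each. The labels name no state, and the pairing was read from the profiles of these same arrays. The first principal component of the 24 arrays held 52.6% of their variance and separated these states. Since the states came from these profiles, the separation describes them and tests nothing. Matching placed each CHK2 line against lines on its own side of this axis, but not at the same point. The shCHK2-2 arrays scored between 29.4 and 30.6, beyond shATM-1 (20.4 to 23.5), shATR-3 (24.1 to 27.1) and shCHK1-3 (16.8 to 20.7). The shCHK2-1 arrays scored between -22.9 and -22.3, between shCHK1-4 (-16.3 to -15.7) and both shATR-4 (-29.4 to -28.1) and shATM-3 (-29.9 to -28.5). What this remaining offset adds to the differences was not tested. Without matching, with each CHK2 line set against all 6 comparison lines, 3938 genes were called for shCHK2-2 and 3025 for shCHK2-1. Of these, 155 then had the same sign in both and 1530 had opposite signs, and 57 of the 113 members were among the 155.

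With matching, 1012 genes (9.16% of those tested) were called for shCHK2-2, 376 higher (3.4%) and 636 lower (5.76%). For shCHK2-1, 1172 genes (10.6%) were called, 468 higher (4.24%) and 704 lower (6.37%). The 113 members make up 1.02% of the genes tested, with 0.172% higher and 0.851% lower, and they are 11.2% of the genes called for shCHK2-2 and 9.64% of those called for shCHK2-1. A further 118 genes (1.07%) were called in both contrasts with opposite signs. The 2 contrasts share no array, and across all genes their differences had a Pearson correlation of 0.0149 and a Spearman correlation of 0.0261, so across all genes the differences of the lines were nearly unrelated. The median difference of all genes was -0.0091 for shCHK2-2 and -0.0082 for shCHK2-1 on the log2 scale.

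**Figure D1:**
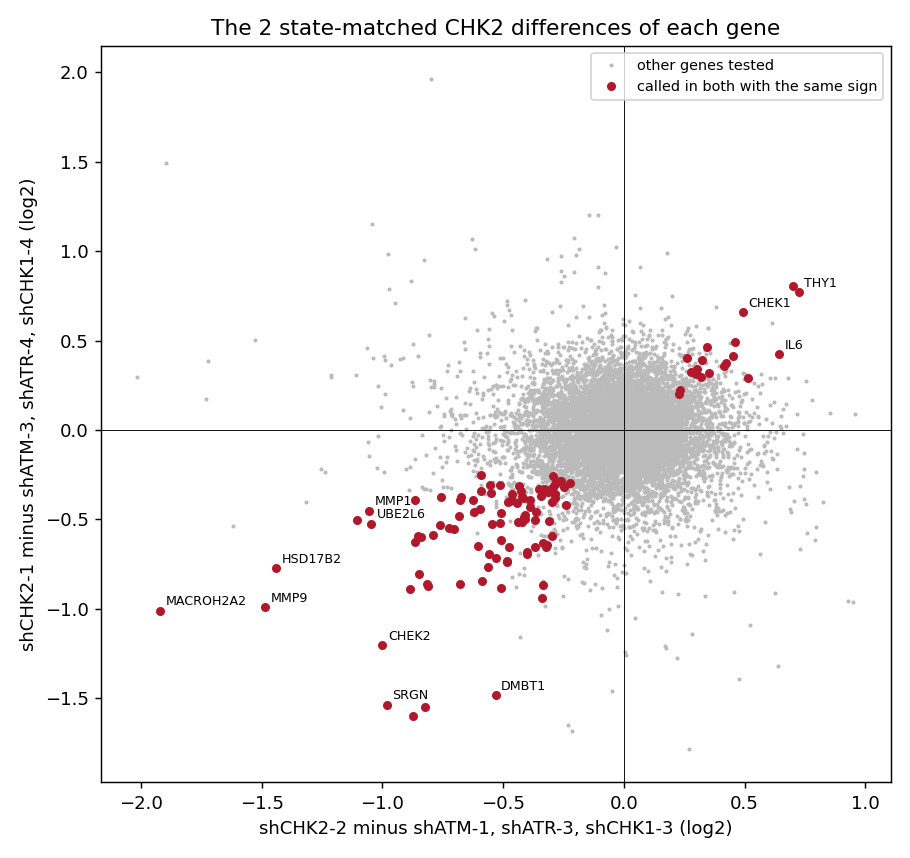
Each point is 1 of 11048 genes, placed by its log2 difference of shCHK2-2 from its 3 comparison lines (horizontal axis) and of shCHK2-1 from its 3 comparison lines (vertical axis), with the 113 genes called in both with the same sign in red. Most red points lie at the lower left, with 94 lower and 19 higher genes.

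The same rule was applied to each of the other targets. Of the CHK2 members 83.2% were lower, against 19.3% of 238 genes for the ATM lines, 54.5% of 22 for the ATR lines and 76.8% of 69 for the CHK1 lines. The contrasts of the 4 targets within a state are set against one another and so are not independent, and the difference between targets was not tested. Opposite signs were called for 118 genes in the CHK2 lines, 65 in the ATM lines, 38 in the ATR lines and 140 in the CHK1 lines.

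**Figure D2:**
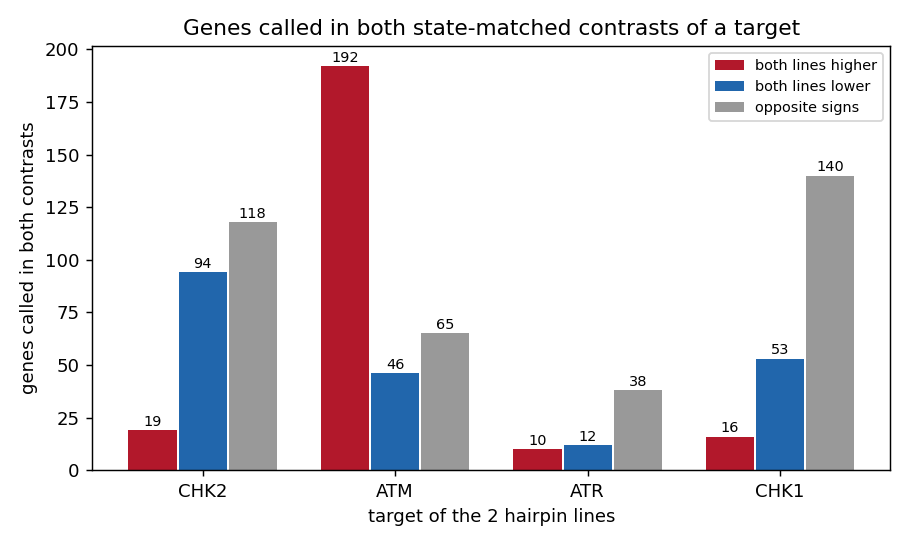
Bars give the number of genes called in both state-matched contrasts of a target, by direction, for the CHK2 lines at the left and then the ATM, ATR and CHK1 lines. The CHK2 bars stand at 19 higher, 94 lower and 118 with opposite signs.

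CHEK2 mRNA, the target, was lower in both CHK2 lines. It read 6.76, 7.08 and 6.73 on the log2 scale in the shCHK2-2 arrays, against 7.58 to 8.33 (median 7.81) in their 9 comparison arrays. It read 6.44, 5.80 and 5.66 in the shCHK2-1 arrays, against 7.02 to 7.38 (median 7.15) in theirs. The groups did not overlap in either contrast. The log2 difference was -1.0 ± 0.16 (SE) for shCHK2-2 (adjusted p = 5.94e-05, limma). For shCHK2-1 it was -1.20 ± 0.16, which left 43.4% (adjusted p = 3.46e-06, limma). A second CHEK2 probe gave -0.92 and -1.40, and one further probe was above background on no array.

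CHEK2 was also read against the scrambled hairpin, across the MTAP divide, so loss of CHEK2 and a difference between the cells cannot be told apart there. The level in shCHK2-2 was 6.86 ± 0.19 (SD, n = 3), against 6.96 ± 0.51 in shControl and 7.13 ± 0.12 in wild type. By this probe shCHK2-2 differed from shControl by -0.10 ± 0.19 (SE, adjusted p = 0.656, limma), which does not show that the levels were the same. By the second probe it differed by -0.60 ± 0.15 (adjusted p = 0.000586, limma). The shCHK2-1 line was lower than shControl by both probes, with log2 differences of -0.99 and -1.78. With the line as the unit, in a fit of the 8 line means with terms for state and target and 5 residual degrees of freedom, CHEK2 was the 1 gene called for CHK2 (0.00905% of those tested). Its line-level difference was -1.10 (adjusted p = 0.0309, limma). With the deposited values it was -0.60 (adjusted p = 0.0836, limma) and the call was lost. The call was also lost without shCHK1-3 replicate 2 (adjusted p = 0.159, limma), shCHK2-1 replicate 1 (0.0521) or shCHK2-2 replicate 3 (0.0537). The next smallest adjusted p was 0.285, while 649 of the 11048 genes tested had an unadjusted p under 0.05. Of these, 85 were members, which were chosen on the same differences, so this count tests nothing.

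**Figure D3:**
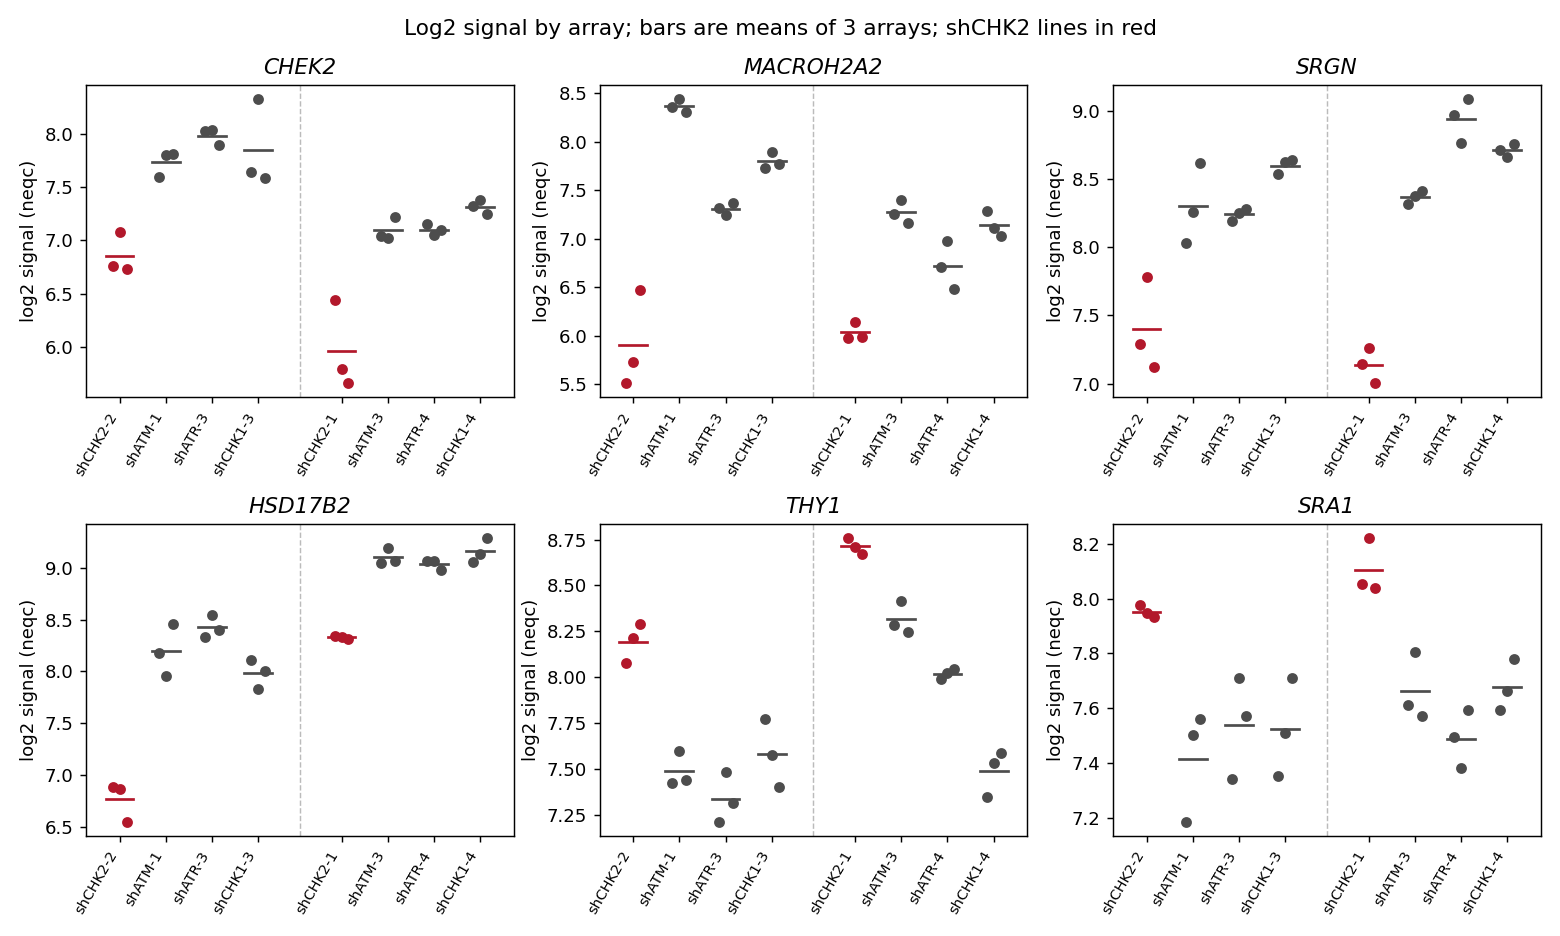
Points are the log2 signals of single arrays and bars the means of 3 arrays, by line, for CHEK2, MACROH2A2, SRGN, HSD17B2, THY1 and SRA1; red marks the CHK2 line, left of its 3 comparison lines, and a dashed line parts the states. In each of these 6 genes the red points lie on one side of all comparison points of the same state.

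Among the other kinases of the pathway, CHEK1 met the rule with a positive sign, by 0.49 for shCHK2-2 and 0.66 for shCHK2-1. This rests on the shCHK1 lines among the comparison lines, in which CHEK1 is the target. CHEK1 read 10.05, 10.04 and 9.94 in shCHK2-2, against 8.41 to 8.64 in shCHK1-3, 9.90 to 10.08 in shATM-1 and 10.04 to 10.18 in shATR-3. Without shCHK1-3 the difference for shCHK2-2 was -0.019. Without shCHK1-4 the difference for shCHK2-1 was 0.29, which still passed the test. ATM passed only for shCHK2-1 (0.58) and differed by 0.30 for shCHK2-2, and each contrast holds an shATM line. For ATM, shCHK2-1 differed by 1.10 from shATM-3, 0.29 from shATR-4 and 0.36 from shCHK1-4. The shCHK2-2 line differed by 0.73 from shATM-1, -0.076 from shATR-3 and 0.24 from shCHK1-3. ATR had 3 probes, and none was above background on more than 2 of the 24 arrays.

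The largest shared difference, ranked by the smaller of the 2 contrasts among members above background on all 24 arrays, was that of MACROH2A2. It encodes the histone variant macroH2A2, which is enriched in silenced chromatin. It read 5.51, 5.73 and 6.48 in shCHK2-2, against 7.25 to 8.44 (median 7.77) in the comparison lines. In shCHK2-1 it read 5.98, 6.14 and 5.99, against 6.48 to 7.40 (median 7.12). The arrays did not overlap in either contrast, and the log2 differences were -1.92 ± 0.12 and -1.01 ± 0.12, so shCHK2-2 stood at 26.4% and shCHK2-1 at 49.6% of the comparison level. MACROH2A2 was the 1 member of a 17-gene histone list called in both contrasts; 16 of the list were tested.

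SRGN encodes serglycin, the core protein of proteoglycans in secretory granules. It read 7.29, 7.78 and 7.12 in shCHK2-2, against 8.03 to 8.64 (median 8.28). It read 7.14, 7.26 and 7.0 in shCHK2-1, against 8.32 to 9.08 (median 8.71). Again no CHK2 array reached a comparison array, and the differences were -0.98 ± 0.13 and -1.54 ± 0.13. A second SRGN probe gave -1.02 and -1.56.

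HSD17B2 encodes an enzyme that oxidizes oestradiol and testosterone to less active steroids. It read 6.88, 6.86 and 6.55 in shCHK2-2, against 7.83 to 8.54 (median 8.18), a difference of -1.44 ± 0.089. It read 8.34, 8.33 and 8.31 in shCHK2-1, against 8.98 to 9.29 (median 9.07), a difference of -0.77 ± 0.089. The shCHK2-1 arrays were thus well above the shCHK2-2 arrays and still below every comparison array of their own state. CD70, which encodes a ligand of CD27, a receptor on T cells, differed by -0.70 and -0.55, and DMBT1, a secreted scavenger receptor protein, by -0.53 and -1.48, each with no overlap in either contrast. The shCHK2-2 call of DMBT1 was lost without shATM-1 (-0.49) or shATR-3 (-0.45).

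Several lower members were too dim in a CHK2 line for a fitted fold. For these a lower bound was taken from the lowest signal called above background on each array. TMEM200A, a membrane protein gene, was above background on none of the 6 CHK2 arrays and on all 18 comparison arrays, and was at least 1.22-fold lower in shCHK2-2 and at least 2.13-fold lower in shCHK2-1. ST6GAL1, a sialyltransferase, was above background on none of the 6 CHK2 arrays and on 8 and 7 of the 9 comparison arrays, which gives bounds of 1.42-fold and 1.25-fold. CTSH, the lysosomal protease cathepsin H, was above background on none of 3 arrays of shCHK2-2 and all 9 of its comparison arrays (at least 1.51-fold lower), and in shCHK2-1 it differed by -1.55. A second CTSH probe was above background on none of the 24 arrays. For CRACDL, PTPRM, CYB5R2, SYT8, REPS2, MIR614, SPOCD1, MVB12B and ORAI3 the shCHK2-2 bound was below 1-fold (0.65 to 0.99). For these genes the bound shows no decrease in shCHK2-2, and for SYT8, SPOCD1 and ORAI3 none in shCHK2-1 either. ARHGEF17 was above background on none of the 3 shCHK2-2 arrays and none of their 9 comparison arrays. In all, 27 of the 94 lower members and 1 of the 19 higher members, MYLIP, were below background on at least 1 of the 24 arrays. The median signal of the members was 7.89, against 8.02 for all genes tested.

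The lower members include some genes of the matrix, adhesion and secreted proteases, grouped after the values were seen and not tested as a group. MMP9 (a gelatinase) read 5.73, 5.71 and 5.94 in shCHK2-2, against 6.59 to 7.96 (median 7.29). In shCHK2-1 it read 7.80, 7.76 and 7.84, against 7.67 to 9.94 (median 8.69), so the groups overlapped. Against single lines shCHK2-1 differed by -2.11 from shATR-4, by -0.96 from shATM-3 and by 0.090 from shCHK1-4 on the log2 scale. Without shATR-4 its shCHK2-1 difference was -0.43 and the call was lost. MMP1, the interstitial collagenase, differed by -1.06 and -0.45 with no overlap in either contrast, and was no longer called in both without shCHK1-4. FBLN1, the matrix protein fibulin-1, differed by -0.79 and -0.59, CDH2, the adhesion protein N-cadherin, by -0.53 and -0.71, and the serine protease gene HTRA1 by -0.51 and -0.88. For CDH2 the shCHK2-2 call was lost without shATR-3, with a difference of -0.40. In RNA from whole cultures, fewer cells of a type and less RNA per cell cannot be told apart.

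S100P, a calcium-binding protein gene, differed in sign between its comparison lines. It read 6.76, 5.78 and 6.33 in shCHK2-2, against 6.79 to 7.52, and 9.03, 9.18 and 9.02 in shCHK2-1, against 7.75 to 11.25. The shCHK2-1 arrays lie inside the range of their comparison arrays. The line differed by -2.15 from shATR-4 and -0.85 from shATM-3, but by 1.21 from shCHK1-4. Without shATR-4 the difference for shCHK2-1 was 0.18 in place of -0.60.

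Among the 19 higher members, THY1 (the cell surface glycoprotein CD90) had the largest shared difference of those above background on all 24 arrays. It read 8.08, 8.21 and 8.29 in shCHK2-2, against 7.21 to 7.78 (median 7.44). It read 8.76, 8.71 and 8.67 in shCHK2-1, against 7.35 to 8.42 (median 8.03). All CHK2 arrays lay above all comparison arrays of their own state. The differences were 0.72 ± 0.073 and 0.77 ± 0.073, or 1.65-fold and 1.71-fold. THY1 was above background on no array of wild type, shControl or the sh53BP1 lines.

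SRA1, whose RNA acts as a coactivator of steroid receptors, was higher by a like amount in both lines. It read 7.98, 7.95 and 7.93 in shCHK2-2, against 7.19 to 7.71, and 8.05, 8.22 and 8.04 in shCHK2-1, against 7.38 to 7.81. The differences were 0.46 ± 0.098 and 0.49 ± 0.098, and against single lines they ran from 0.41 to 0.62. CGAS, the cytosolic DNA sensor, differed by 0.45 and 0.42. Its shCHK2-2 arrays (7.09, 7.0 and 7.06) lay above all comparison arrays (6.31 to 6.79), while its shCHK2-1 arrays (6.33, 6.51 and 6.95) overlapped theirs (5.94 to 6.34). POLR3G, a subunit of RNA polymerase III, differed by 0.42 and 0.36, and SNX8, an endosomal sorting protein, by 0.35 and 0.46. Further POLR3G probes gave 0.15 and 0.32, and 0.15 and 0.46. A second SNX8 probe gave 0.086 and 0.15, and none of these probes passed in either contrast. Without shATM-3 the shCHK2-1 difference of POLR3G was 0.29 and the call was lost. MYLIP, a ligase that marks the LDL receptor for breakdown and the 1 dim higher member, met the rule with all comparison lines and with each left out. At the low end, NUP62, a protein of the nuclear pore, differed by 0.23 and 0.22. A second NUP62 probe gave 0.20 and 0.035 and passed in neither contrast.

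IL6, the inflammatory cytokine interleukin-6, read 8.18, 8.29 and 8.08 in shCHK2-2, against 7.0 to 7.84 (median 7.60). In shCHK2-1 it read 9.05, 9.24 and 9.20, against 8.21 to 9.16 (median 8.85), with overlap. The differences were 0.64 ± 0.11 and 0.42 ± 0.11. The second rested on shCHK1-4: the line lay 0.88 above it, 0.28 above shATM-3 and 0.12 above shATR-4, and without shCHK1-4 the difference was 0.20 and the call was lost.

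Line by line, all 113 members lay on their own side of shATM-1 and of shCHK1-3, 111 of shATR-3 and of shATM-3, 110 of shATR-4 and 90 of shCHK1-4. Thus 23 members lay on the other side of shCHK1-4, by line means. By the same measure 84 of the 113 members lay on one side of all 6 comparison lines, against 1568 genes (14.2%) of all those tested. Array by array, 21 members had all 3 CHK2 arrays outside all 9 comparison arrays in both contrasts, against 26 genes (0.235%) of all those tested. These were CHEK2, MACROH2A2, SRGN, HSD17B2, CD70, DMBT1 and 12 further lower genes, and the higher genes THY1, SRA1 and TVP23C. Since the members were chosen on these arrays, the counts describe them and test nothing.

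**Figure D4:**
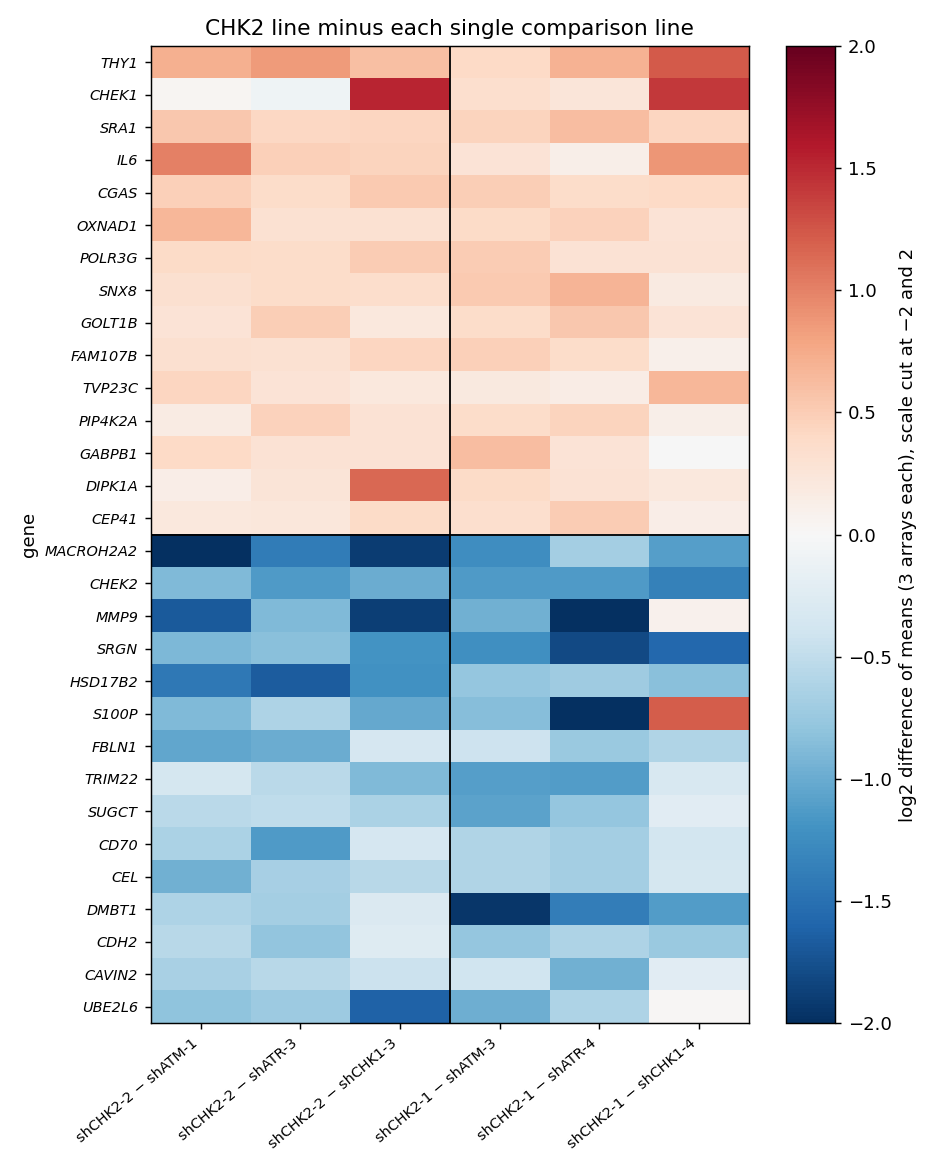
Colours give the log2 difference between the mean of a CHK2 line and the mean of each single comparison line (3 arrays each) for the 15 higher and 15 lower named members, with shCHK2-2 in the 3 left columns and shCHK2-1 in the 3 right columns. CHEK1 is strongly coloured only against shCHK1-3 and shCHK1-4, and S100P is red against shCHK1-4 and blue against the other lines.

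Of 26 tested p53 target genes, CDKN1A (the cell cycle inhibitor p21) and DDB2 (a sensor of ultraviolet damage) were lower in both CHK2 lines, against 0.851% of all genes, and none was higher in both. CDKN1A read 11.77, 11.66 and 11.59 in shCHK2-2, against 11.62 to 12.32, and 12.58, 12.42 and 12.64 in shCHK2-1, against 12.66 to 13.15. Its differences were -0.24 ± 0.065 and -0.42 ± 0.065, with overlap in the first contrast only. Without shCHK1-3 the first was -0.12 and its call was lost, and a second CDKN1A probe, above background on 19 of the 24 arrays, gave 0.00042 and -0.34. DDB2 differed by -0.42 and -0.38, and against single lines its differences ran between -0.49 and -0.28. Its shCHK2-2 call was lost without shCHK1-3 (difference -0.39), and its shCHK2-1 call without shATM-3 (-0.32) or shATR-4 (-0.39). In single contrasts, 2 p53 targets were higher and 4 lower in shCHK2-2, and 0 higher and 7 lower in shCHK2-1; of all genes 5.76% were lower in shCHK2-2 and 6.37% in shCHK2-1. The median difference of the list was -0.12 and -0.092. CYFIP2 had the largest of these differences, at -1.68 in shCHK2-1 and -0.22 in shCHK2-2, and was above background on 15 of the 24 arrays.

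Interferon response genes, which cells induce against viruses, were lower mainly in shCHK2-1 when all comparison lines were used. Of 30 tested, 14 were lower and 0 higher in shCHK2-1, against 3 lower and 0 higher in shCHK2-2, and HERC5 and IFIT3 were lower in both. Of all genes 6.37% were lower in shCHK2-1 and 5.76% in shCHK2-2, so the count for shCHK2-2 is near the background. The median difference of the list was -0.34 for shCHK2-1 and -0.17 for shCHK2-2. HERC5 is the ligase that attaches the ubiquitin-like protein ISG15, and IFIT3 binds other IFIT proteins that recognize viral RNA. IFIT3 read 5.41, 5.77 and 5.58 in shCHK2-2, against 5.51 to 6.24, and 6.83, 6.80 and 6.72 in shCHK2-1, against 6.71 to 8.09. The groups overlapped in both contrasts, with differences of -0.32 ± 0.094 and -0.65 ± 0.094. Of its further probes, one above background on 19 of the 24 arrays gave -0.24 in shCHK2-2 and did not pass there. In shCHK2-1 that probe was lower and passed. Another, above background on 6 of the 24 arrays, gave -0.0027 and -0.20 and passed in neither contrast. HERC5 was above background on none of the 3 arrays of shCHK2-2 and on 7 of its 9 comparison arrays (at least 1.10-fold lower), and differed by -0.73 in shCHK2-1. Both shCHK2-2 calls were lost without shCHK1-3 (IFIT3 -0.19, HERC5 -0.35), and that of HERC5 also without shATR-3 (-0.45). Against shCHK1-4 alone, shCHK2-1 differed by 0.029 for IFIT3 and by 0.022 for HERC5.

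The interferon difference of shCHK2-1 was not the same against each comparison line. The list's median stood at -0.78 against shATM-3 and -0.51 against shATR-4, but at 0.20 against shCHK1-4. With both shCHK1 lines left out of the comparison, 18 of the 30 genes were lower in shCHK2-1 and 1 in shCHK2-2. With both shATM lines left out, 9 were lower and 1 higher in shCHK2-1, and 6 were lower in shCHK2-2. With both shATR lines left out, 12 were lower and 1 higher in shCHK2-1, and 7 were lower in shCHK2-2. Interferon-inducible members outside the list, picked after their values were seen, included CGAS, which was higher in both lines, and the lower genes TRIM22 (-0.59 and -0.84), HLA-B (-0.39 and -0.43) and UBE2L6, the conjugating enzyme for ISG15 (-1.05 and -0.52). For TRIM22 the shCHK2-2 difference without shCHK1-3 was -0.44, and its call was lost. HLA-B was no longer called in both without shCHK1-3, shATM-3 or shATR-4. UBE2L6 in shCHK2-1 differed by -0.98 from shATM-3 and by 0.030 from shCHK1-4, and without shATM-3 its shCHK2-1 difference was -0.30 and the call was lost. A second UBE2L6 probe gave -0.45 and -0.19.

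**Figure D5:**
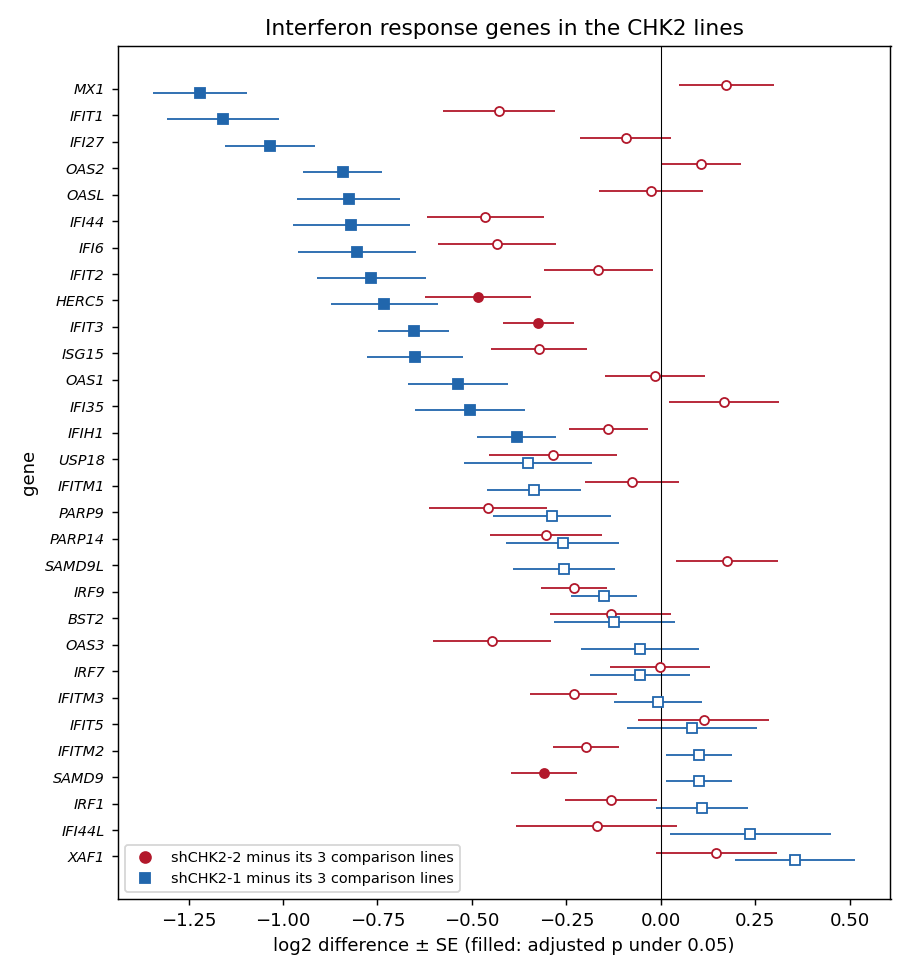
Points give the log2 difference ± SE of each of 30 interferon response genes for shCHK2-2 (red circles) and shCHK2-1 (blue squares) against their comparison lines, filled where the adjusted p was under 0.05. Filled blue squares stand at the 14 genes lower in shCHK2-1, and filled red circles only at HERC5, IFIT3 and SAMD9.

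The sequence just upstream of HERC5 and IFIT3, from RefSeq on build GRCh38.p14, is shown because these were the interferon genes called in both contrasts. Each window is 200 bases long and ends at the base before an annotated start site, written 5′ to 3′ on the strand of the gene. Capitals mark the core of the interferon-stimulated response element, searched on both strands as the letters TTTC, any 2 bases, and TTTC again; matches may overlap. IFIT3 has 2 annotated start sites, on the plus strand like that of HERC5.
HERC5, chr4:88456919-88457118: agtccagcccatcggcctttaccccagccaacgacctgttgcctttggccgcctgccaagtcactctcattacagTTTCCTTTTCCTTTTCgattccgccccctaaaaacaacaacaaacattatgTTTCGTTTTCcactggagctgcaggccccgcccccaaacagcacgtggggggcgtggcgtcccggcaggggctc
IFIT3, chr10:89327797-89327996: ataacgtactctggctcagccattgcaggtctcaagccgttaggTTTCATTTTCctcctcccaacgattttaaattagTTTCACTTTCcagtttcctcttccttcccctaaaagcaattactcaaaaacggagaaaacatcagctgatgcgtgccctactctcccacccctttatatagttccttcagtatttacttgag
IFIT3, chr10:89332329-89332528: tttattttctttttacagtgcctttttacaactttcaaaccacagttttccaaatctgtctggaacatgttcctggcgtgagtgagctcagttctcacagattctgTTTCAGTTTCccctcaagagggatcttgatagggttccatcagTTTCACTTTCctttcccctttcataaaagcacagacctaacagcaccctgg

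HERC5 holds 3 matches, a pair of which overlap, and each IFIT3 window holds 2. On both strands together, the letters occur in the 200 bases before a start site of 242 of the 8889 tested genes with a RefSeq promoter (2.72%). They occur for 4 of the 91 members with one (4.4%), all lower: HERC5, IFIT3, CEACAM1 and NFIX. In the interferon list they occur for 18 of 24 genes, and for 9 of the 11 with a promoter that were lower in shCHK2-1. UBE2L6 has no match in its windows. A match is a run of letters and not a measured binding site.

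Inflammatory genes under NF-kB, a transcription factor of stress and infection, were called in different directions in the CHK2 lines. Of 20 tested, 5 were higher and 0 lower in shCHK2-2, and 2 were higher and 6 lower in shCHK2-1, with medians of 0.25 and -0.16. Of all genes 3.4% were higher and 5.76% lower in shCHK2-2, and 4.24% higher and 6.37% lower in shCHK2-1. CSF3 (the cytokine G-CSF) differed by 0.68 in shCHK2-2 and -0.32 in shCHK2-1, and CXCL8 (interleukin-8) by 0.48 and -0.37, each called for shCHK2-2 only. CCL20, a chemokine, differed by 0.27 and -1.78 and was called for shCHK2-1 only. IL6 was the 1 gene of the list called in both with one sign. The remaining lists gave few members. KRT15, a basal keratin, differed by -0.40 and -0.68 and was the 1 gene called in both of 10 tested basal keratin and hemidesmosome genes. In shCHK2-2 alone 5 of the 10 were lower and 0 higher (median -0.29), KRT6C by -0.52, KRT14 by -0.49, ITGA6 by -0.43 and LAMB3 by -0.31 beside KRT15, while in shCHK2-1 KRT15 was the 1 called (median -0.052). For KRT15 the shCHK2-1 arrays (11.25, 11.35 and 11.18) lie within the range of the comparison arrays (11.13 to 12.59). No gene was called in both contrasts with one sign among 17 CHK2 substrates, 23 genes of homologous recombination, 10 Fanconi anaemia genes, 13 of end joining, 30 of G1/S and replication, 32 of G2/M and 19 of the BCL2 family. With 1.02% of all genes called in both, lists of this size would hold about none at the background share, so these counts are no result about the pathways. In single contrasts, 5 of the 30 G1/S genes were higher and 3 lower in shCHK2-1, against 1 and 1 in shCHK2-2. The G1/S median of shCHK2-1 stood at 0.27 against shATM-3, 0.093 against shATR-4 and -0.091 against shCHK1-4.

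A further set of genes separated the CHK2 lines from each other. The difference between the contrasts passed the test for 1109 genes (10%), including 12 of the 113 members and all 118 genes called with opposite signs. Genes called with opposite signs nearly always pass a test of the difference in the same fit, so their count tests nothing. Of these 118, 63 were lower in shCHK2-2 and higher in shCHK2-1, and 55 were the reverse. SUSD2, a membrane protein, differed by 0.95 in shCHK2-2 and -0.96 in shCHK2-1. SGPP2, a phosphatase of sphingosine 1-phosphate, differed by 0.93 and -0.96, and LRIG1, a brake on EGFR family receptors, by 0.64 and -1.32. EMP3, a membrane protein, differed by -0.95 and 0.71, and SCG5, a chaperone of secretory granules, by -0.62 and 1.01. KYNU, the tryptophan-pathway enzyme kynureninase, differed by 0.76 and -0.57.

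Where the array held further detected probes of a member, they were read as a second measurement of the same RNA. There were 39 such probes for 32 members. For 32 of the 39 probes both differences had the sign of the member, and 10 passed in both contrasts with that sign. Of all 14872 detected probes, 121 were called in both with one sign. The further probes were read on the arrays that chose the members, so their signs are not independent of that choice. Probes of SRGN, ZNF22, FAM167A, TAF15 and SRGAP3 were among the 10. SLX1B, which has a near-identical copy in the genome, differed by -0.56 and -0.76, but its second probe, above background on 6 of the 24 arrays, gave 0.041 and -0.24, and its assignment is uncertain. The rule's edge passes through a continuum. The last genes inside were PAOX, IGFBP6 and the probe annotated MIR614, with larger adjusted p-values just under the threshold, and IGFBP6 differed by -0.30 and -0.40. The first genes outside were TNFAIP3 (-0.36 and -0.48), DHRS1 (-0.42 and -0.23) and SMOC1, which was above background on 10 of the 24 arrays.

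The groups that the rule did not use show how the members vary elsewhere in the series. Between shControl and wild type, 55 members were called (48.7%), 38 higher and 17 lower in shControl, against 30.5% of all genes tested. Against shControl, 83 members (73.5%) were called in sh53BP1-1 and 82 (72.6%) in sh53BP1-2, against 59.6% and 56.2% of all genes. These comparisons share the shControl arrays. SRGN stood at 6.06 ± 0.39 in sh53BP1-1 and 7.52 ± 0.17 in sh53BP1-2, against 10.69 ± 0.22 in shControl and 8.57 ± 0.087 in wild type (SD, n = 3 each). MACROH2A2 stood at 9.04 ± 0.10 in sh53BP1-1 and 8.34 ± 0.053 in sh53BP1-2, against 8.12 ± 0.022 in shControl and 7.51 ± 0.16 in wild type. SRA1 differed by 0.36 between shControl and wild type and by -0.081 and 0.13 between the sh53BP1 lines and shControl.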

How the data were processed

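Messenger RNA was measured on 36 BeadChip arrays. The deposited signals are intensity values per probe with a detection p-value beside each, per the file headers; the authors' deposited log2 values equal quantile-normalized log2 signals to within 0.0013. Signals were background corrected and normalized with neqc (limma 3.58.1 in R 4.3.3, offset 16, with 770 negative controls worked out of the detection column). Probes with a detection p under 0.01 on all 3 arrays of a group were kept (18905), 4033 without 1 gene name were left out, and the brightest probe stood for each of 11048 genes. A model of 12 group means over 36 arrays gave the contrasts (moderated tests, Benjamini-Hochberg within each, threshold 0.05). It was also run on simulated data with a state shift but no spread between lines. Such data cannot show how that spread affects the calls. The number of arrays limits the precision.

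Members, lists and tests were chosen with earlier results of these data known. The named genes were the kinases, 15 members per direction by the smaller difference, dim members by detection, list members, 6 of opposite sign and 3 on each side of the threshold; others were chosen after their values were seen. Replicate numbers were not used to pair the arrays in the main fit. Between different kinase lines, residuals correlated by a mean of 0.0201 for the same number and -0.0099 for other numbers. For the same number they ran from -0.237 to 0.386. Figures used matplotlib 3.10.9. No slide was known for any array, so none was fitted as a block.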

Additional observations from a re-analysis of the deposited data

Results flagged for a closer look

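For 10 named genes the shCHK2-2 difference and the shCHK2-1 difference, each against its own comparison lines, differed from each other by the interaction test of the same fit (limma, adjusted p under the threshold). Values are shCHK2-2 difference minus shCHK2-1 difference on the log2 scale. Among the members, which were lower in both lines, MACROH2A2 (-0.91), HSD17B2 (-0.67) and UBE2L6 (-0.52) were further below their comparison lines in shCHK2-2, and DMBT1 (0.95) was further below in shCHK2-1. Among the genes called with opposite signs, the values were 1.91 for SUSD2, 1.88 for SGPP2, 1.96 for LRIG1, 1.33 for KYNU, -1.66 for EMP3 and -1.63 for SCG5. All 10 were picked on the contrasts that this test compares, the 4 members for one sign and the other 6 for opposite signs, so the values are a description and the tests add nothing to the pick. Each CHK2 line is a different hairpin in a different state, and these cannot be told apart.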

How the results depend on the processing

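With each of 24 arrays left out in turn, 1012 genes called for shCHK2-2 became 569 to 1085, 1172 for shCHK2-1 became 696 to 1438, the 113 members 66 to 136, and the 1109 genes that differed between the contrasts 779 to 1291. Without shCHK2-2 replicates 1 and 3 the shCHK2-2 count was 639 and 569, and without shCHK2-1 replicates 1, 2 and 3 the shCHK2-1 count was 759, 755 and 696. The fewest members came without shCHK2-2 replicate 3, where 64 of the 113 remained. Among these settings the CHEK2 difference ran from -1.11 to -0.92 in shCHK2-2 and from -1.44 to -1.05 in shCHK2-1, called throughout. List genes called in both (11) numbered 7 (without shCHK2-2 replicate 3) to 17 (without shCHK1-3 replicate 3), and the line-level count 0 to 1, with 0 without shCHK1-3 replicate 2, shCHK2-1 replicate 1 or shCHK2-2 replicate 3. Of the 113 members, 26 remained with each array left out, 26 with each comparison line left out, and 18 in all of these, among them CHEK2, MACROH2A2, SRGN, HSD17B2, CD70, THY1, SRA1 and MYLIP.

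Without matching, 3938, 3025 and 5016 genes were called for shCHK2-2, shCHK2-1 and their difference, and the sign turned for DMBT1 in shCHK2-2 (0.17) and for S100P (0.67), UBE2L6 (0.084), CDKN1A (0.11), IFIT3 (0.11) and KRT15 (1.19) in shCHK2-1; the cause was not tested. With matching, a minimum difference of 0.5 left 364 of 1012, 361 of 1172 and 726 of 1109 genes, 33 members and 4 list genes. List genes numbered 17, 7 and 19 without shATR-3, shCHK1-3 and shCHK1-4. The sign turned for CHEK1 in shCHK2-2 without shCHK1-3 or both shCHK1 lines (-0.019), and for S100P in shCHK2-1 without shATR-4 or both shATR lines (0.18). Leaving out both lines of a target, chosen after seeing the data, kept 53 (ATM), 71 (ATR) and 79 (CHK1) of the members. The line-level count was 0 with the deposited values, which match signals with no background correction, and 2 over all detected probes. With the replicate block, 113 genes were members, 109 of them as before, and 988 and 1150 were called for shCHK2-2 and shCHK2-1. Signal over background limits the 28 members that were below background on some array.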

Other observations

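Some lower members encode proteins of the lysosome, a grouping made after the values were seen and not tested. FUCA1, the lysosomal fucosidase, differed by -0.48 in shCHK2-2 and -0.40 in shCHK2-1, RNASET2, a lysosomal ribonuclease, by -0.59 and -0.44, and LIPA, the lysosomal acid lipase, by -0.31 and -0.33. CTSV, the protease cathepsin V, differed by -0.59 and -0.25. FUCA1 stayed a member with each comparison line left out, while LIPA and RNASET2 were lost without shATM-3 and CTSV without shATR-4. Each of the 4 was measured above background in every kinase line array.

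Among the members that act on chromosomes or RNA, TERF1, a protein of the telomere, differed by -0.42 and -0.37, but its second probe gave -0.074 and 0.22 and it was lost without shATM-1, shATM-3 or shATR-4. TAF15, an RNA-binding protein, differed by -0.62 and -0.39, with no overlap of arrays in either contrast, and its second probe gave -0.75 and -0.52.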
